A study of Mus musculus with 10 samples.

Results

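The RNA polymerase I machinery was followed in mouse embryonic stem cells through 10 genes listed by name: the polymerase subunits Polr1a, Polr1b, Polr1c, Polr1d and Polr1e, the initiation factor Rrn3, the ribosomal DNA-binding protein Ubtf, and the selectivity factor SL1 subunits Taf1b, Taf1c and Taf1d. These 10 were among 33006 genes of the count table, and all 10 were among the 13522 genes that passed the filter on low counts. The cells were of the E14 line and carried NPM1, a nucleolar histone chaperone, in a form that auxin causes to be degraded through an auxin-inducible degron. Per the labels they were arrested in G1 and then released for 12 h, with auxin in 2 RNA libraries and without auxin in 2 RNA libraries. Both groups carried the degradable NPM1 and both grew with LIF, PD0325901 (a MEK inhibitor, 1 µM) and CHIR99021 (a GSK3 inhibitor, 3 µM). The header of the count table names clone 38 for every RNA library, so the comparison concerns 1 clone. No library of auxin-treated cells without the degron was analysed here, so auxin itself and loss of NPM1 cannot be told apart. For H3K27me3, the Polycomb mark, a peak list from 1 ChIP-seq sample at 6 h without auxin and a peak list from 1 control CUT&RUN sample at 12 h were used.

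RNA polymerase I transcribes the repeated ribosomal DNA in the nucleolus into the precursor of the large ribosomal RNAs, a step that limits how fast a cell can make ribosomes. Ubtf coats the ribosomal DNA and keeps it open, SL1 binds the promoter through the TATA-binding protein and its associated Taf1 subunits, and Rrn3 carries the polymerase to SL1. Fast-growing embryonic stem cells transcribe ribosomal DNA at a high rate. NPM1 itself is an abundant nucleolar protein that takes part in ribosome assembly.

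The RNA libraries held 13353446 and 16046290 fragments with auxin, against 14789851 and 15183126 without auxin. Npm1 had 843 and 767 CPM (counts per 10 to the power 6 of the TMM-scaled library) with auxin, against 1058 and 951 CPM without auxin. Its transcript was called lower with auxin (log2 fold change −0.32 ± 0.06 SE, edgeR adjusted p = 0.00337). Because a degron acts on the protein, the transcript does not check the labels. Of 8 stem cell markers 5 were called lower and 1 higher with auxin, and the defining gene Pou5f1 stood at 1119 and 1185 CPM with auxin, against 1372 and 1385 CPM without auxin. Of 10 fibroblast markers 6 were tested, with 1 called lower and 1 higher. The summed level of all 10 was 2933 and 3132 CPM with auxin, against 3051 and 3184 CPM without auxin, most of it from Fn1 (2675 and 2879 CPM with auxin, against 2740.5 and 2882 CPM without auxin). Lum and Postn had 0 or 1 fragment in each library. Pdgfrb (122 and 256 fragments with auxin, against 45 and 85 without auxin) was called higher, and Col1a1 (43 and 51 fragments with auxin, against 32 and 31 without auxin) and Col1a2 (20 and 23 fragments with auxin, against 16 and 15 without auxin) had more fragments in both auxin libraries but were not called. In bulk RNA, fewer cells of a type and less RNA per cell cannot be told apart.

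Of the 10 genes of the machinery, 5 were lower with auxin, and the rest did not pass the test. The 10 genes together made up 0.146% and 0.152% of all fragments with auxin, against 0.170% and 0.165% without auxin, and their summed level was 1437 and 1448 CPM with auxin, against 1765 and 1703 CPM without auxin. In edgeR's quasi-likelihood test with Benjamini-Hochberg adjustment over all tested genes and a threshold of 0.05, 5 of the 10 were called lower, namely Rrn3, Polr1b, Polr1c, Polr1a and Polr1d. Of all tested genes 14.5% were called lower and 13% higher, and of the 7122 tested genes within the members' range of mean CPM 20.8% were called lower. None of the 10 was called higher by edgeR, with 0 higher at an unadjusted p under 0.05 and 0 called higher by DESeq2, which called 7.1% of all its tested genes higher and 11.7% lower. DESeq2 called 4 of the 10 lower. The fold changes of the called genes were modest, between 1.19-fold for Polr1d and 1.33-fold for Rrn3. The median log2 fold change of the 10 was −0.24, against 0.01 over all tested genes. In 8 of the 10 both auxin libraries lay below both libraries without auxin, a pattern that 31.8% of all tested genes shared, with 33% showing the opposite separation, and only Taf1b and Taf1c had overlapping groups. Scaling by library totals alone moved the median of all genes to 0.11 and the median of the 10 to −0.14, and left 4 of the 10 called lower, with all tested genes split into 988 lower and 2735 higher instead of 1964 lower and 1759 higher. Without replicate 1 of the cells without auxin, 1257 of all tested genes were called lower, with 4 of the 10 among them.

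**Figure D1:**
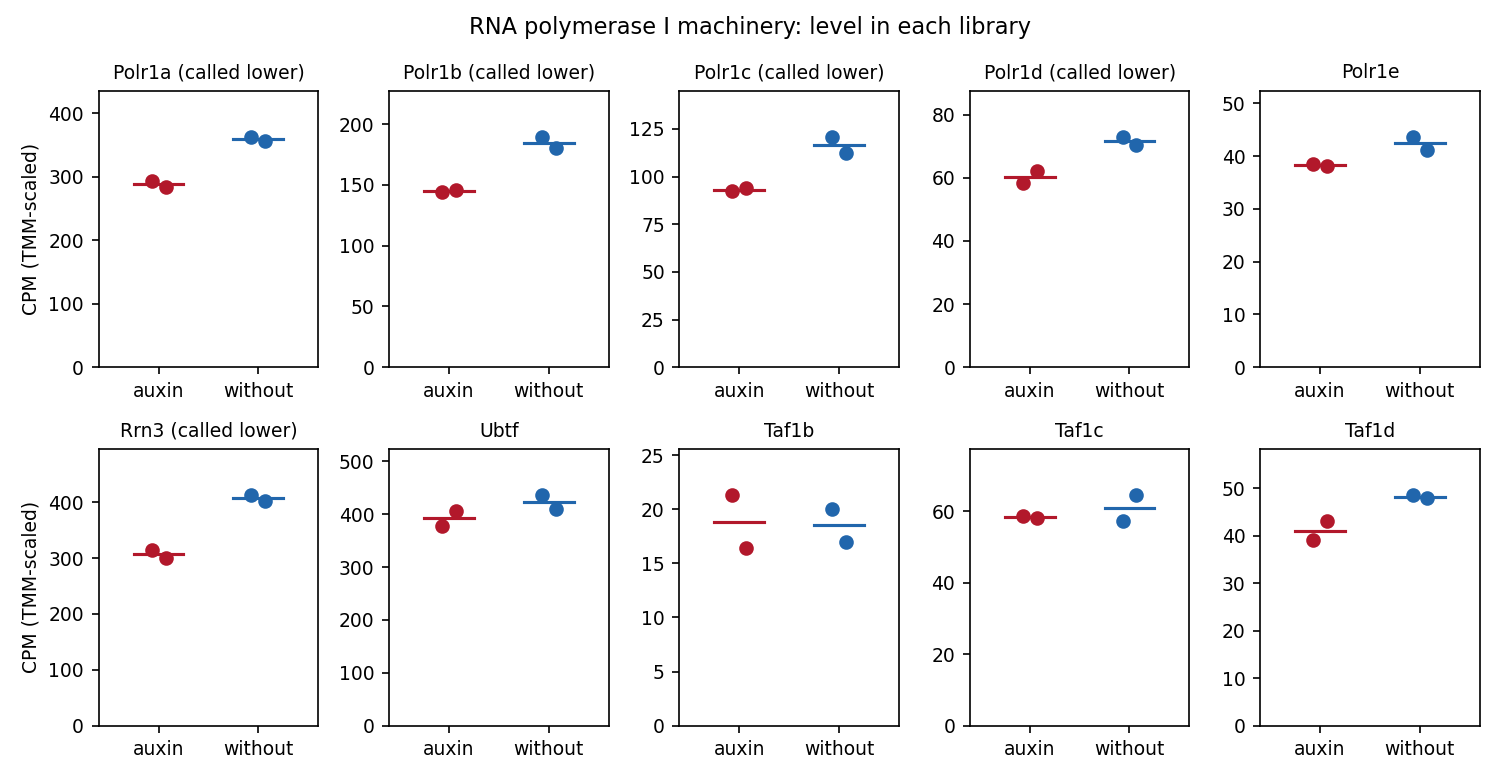
Level of each of the 10 genes in CPM (TMM-scaled, linear axis from 0) in each RNA library, with auxin on the left and without auxin on the right. Points are libraries and lines are means of 2 libraries. The called genes have separated groups, for example Rrn3 at 315 and 299.8 CPM with auxin against 413 and 403 CPM without auxin, while Taf1b and Taf1c overlap.

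Among the polymerase subunits, the catalytic core and the assembly pair were lower with auxin. Polr1a, the largest subunit, which forms the catalytic centre together with Polr1b, had 293 and 284 CPM with auxin, against 363 and 357 CPM without auxin. The groups did not overlap, and the gap between them was several times the spread within either group. Its mean was 289 ± 5.97 CPM with auxin and 359.8 ± 4.57 CPM without auxin (SD, n = 2 each), a log2 fold change of −0.32 ± 0.05 SE (edgeR adjusted p = 0.000743). Polr1b, the second-largest subunit, had 144 and 146 CPM with auxin, against 189.7 and 179.9 CPM without auxin. Both auxin libraries were again the low ones, with a log2 fold change of −0.35 ± 0.05 SE (edgeR adjusted p = 0.000913). The ratio of Polr1a to Polr1b, taken per exon length, was 1.93 and 1.86 with auxin, against 1.82 and 1.88 without auxin. The ratios of the groups overlapped.

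Polr1c and Polr1d form the heterodimer on which the enzyme is assembled, and both also belong to RNA polymerase III. Polr1c had 92.2 and 93.9 CPM with auxin, against 121 and 112 CPM without auxin (log2 fold change −0.32 ± 0.06 SE, edgeR adjusted p = 0.00297). Polr1d had 58.5 and 62.1 CPM with auxin, against 73.1 and 70.5 CPM without auxin (log2 fold change −0.25 ± 0.07 SE, edgeR adjusted p = 0.0191). In both genes the 2 auxin libraries lay below the 2 without auxin, but the call on Polr1d was less firm. Its adjusted p was 0.0552 with DESeq2, 0.0810 in edgeR without auxin replicate 1, 0.112 in edgeR without replicate 1 of the cells without auxin and 0.137 with library totals alone.

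Polr1e, which pairs with Cd3eap at the periphery of the enzyme and helps it to initiate and elongate, had the smallest log2 fold change in size among the 5 subunits. It had 38.5 and 38.1 CPM with auxin, against 43.7 and 41.2 CPM without auxin. The groups were separate and the auxin libraries low, but the difference missed the threshold (log2 fold change −0.15 ± 0.08 SE, edgeR adjusted p = 0.185). At 522 to 641 fragments per library it is one of the less deeply counted members.

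Rrn3 showed the largest change of the 10. It had 315 and 299.8 CPM with auxin, against 413 and 403 CPM without auxin, from 4266 to 5942 fragments per library. Both auxin libraries were low and the groups were well apart, with means of 307 ± 10.4 CPM with auxin and 408 ± 6.94 CPM without auxin (SD, n = 2 each). The log2 fold change was −0.41 ± 0.05 SE, a 1.33-fold lower level (edgeR adjusted p = 0.000183). Only 6.62% of all tested genes had a lower log2 fold change than Rrn3. Rrn3 is the switch by which growth signals set the activity of the polymerase, and it is regulated in large part through phosphorylation, which RNA counts do not measure.

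The E-box CACGTG, the core sequence that Myc and related factors bind, stood in 7.15% of all promoter windows. Among the 10 genes it was found in Rrn3 alone, and 1 gene of 10 is near that share. The Rrn3 window also carries CCGGAAG, a sequence typical of ETS-family sites. The windows below run from 250 bases before to 50 bases after the RefSeq start (GRCm38.p6) and read 5′ to 3′ on the strand of the gene. Capitals mark CACGTG and CCGGAAG on either strand, the second appearing as CTTCCGG where it lies on the other strand. Rrn3 and Polr1c were called lower, while Polr1e and Taf1b, shown for contrast, carry the same CCGGAAG and were not called. The windows lie at chr16:13780449-13780748 (+) for Rrn3, chr17:46247996-46248295 (−) for Polr1c, chr4:45018359-45018658 (+) for Polr1e and chr12:24498331-24498630 (+) for Taf1b.
Rrn3: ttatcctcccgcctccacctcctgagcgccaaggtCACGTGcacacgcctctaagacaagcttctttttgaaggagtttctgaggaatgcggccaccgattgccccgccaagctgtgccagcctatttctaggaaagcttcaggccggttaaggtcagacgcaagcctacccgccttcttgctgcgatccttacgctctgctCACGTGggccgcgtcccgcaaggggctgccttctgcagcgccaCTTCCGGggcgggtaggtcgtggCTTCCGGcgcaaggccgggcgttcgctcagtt
Polr1c: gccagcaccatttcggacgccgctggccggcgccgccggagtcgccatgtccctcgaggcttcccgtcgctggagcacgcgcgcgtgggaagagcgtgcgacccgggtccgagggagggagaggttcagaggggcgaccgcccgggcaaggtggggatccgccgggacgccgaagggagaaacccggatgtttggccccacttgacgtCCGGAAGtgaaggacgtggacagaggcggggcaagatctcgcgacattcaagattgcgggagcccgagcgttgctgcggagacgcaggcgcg
Polr1e: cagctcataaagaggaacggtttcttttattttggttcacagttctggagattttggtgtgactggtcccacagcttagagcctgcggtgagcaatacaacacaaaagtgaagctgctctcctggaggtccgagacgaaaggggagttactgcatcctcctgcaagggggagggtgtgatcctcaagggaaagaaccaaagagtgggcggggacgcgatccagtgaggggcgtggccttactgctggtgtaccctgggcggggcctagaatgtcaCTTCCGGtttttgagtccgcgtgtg
Taf1b: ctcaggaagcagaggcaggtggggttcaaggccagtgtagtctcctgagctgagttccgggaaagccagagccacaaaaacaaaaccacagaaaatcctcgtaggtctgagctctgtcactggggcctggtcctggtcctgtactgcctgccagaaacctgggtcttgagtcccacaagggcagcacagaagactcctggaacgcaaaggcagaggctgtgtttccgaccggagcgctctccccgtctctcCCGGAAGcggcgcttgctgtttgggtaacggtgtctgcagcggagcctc

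In Rrn3 the 2 copies of CACGTG began at positions −215 and −48 from the start and the 2 copies of CCGGAAG at −5 and 19. All 10 genes matched the RefSeq promoter table, with 16 windows in all because Ubtf has 6 and Taf1c has 2. The Polr1d window (chr5:147077096-147077395, plus strand) begins inside the gene as annotated for counting, whose 5′ end is at 147077050. Sequence before that end was therefore not searched. A gene counted where any of its windows held the motif, whereas the shares given are of single windows. Counts of genes and shares of windows are therefore not like for like. The shares were also taken over all windows, whether or not the gene passed the filter on low counts, as all 10 did. CACGTG was found in 1 of the 10 genes, against 7.15% of all 32851 windows. CCGGAAG was found in 5 of the 10, Rrn3, Polr1c, Polr1e, Taf1b and Taf1c, against 8.86% of all windows. Of these 5 genes 2 were called lower, and of the 5 genes without it in the windows searched, Polr1d among them, 3 were called lower. CCAAT was found in Polr1a, Ubtf and Taf1c, against 37.4% of all windows. TGACGTCA, the palindromic NRF1 motif and TATAAA were in none of the members' windows, against 1.79%, 0.971% and 13.6% of all windows. Both strands were searched and the motifs do not overlap each other in the printed windows. A match describes letters only and says nothing of binding.

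Ubtf, the HMG-box protein that covers the ribosomal DNA, had the highest mean CPM of the 10 in both groups and was not called. CPM is not scaled by gene length, and per length Rrn3 was higher in both groups. It had 377 and 406 CPM with auxin, against 436 and 410.3 CPM without auxin. Both auxin libraries were the lower ones, but the second auxin library and the second library without auxin were nearly level. The log2 fold change was −0.11 ± 0.05 SE (edgeR adjusted p = 0.153). Per length, the ratio of Rrn3 to Ubtf was 1.52 and 1.34 with auxin, against 1.72 and 1.79 without auxin. The ratio was lower in both auxin libraries, by 0.30 on the log2 scale, but an exact two-sided permutation test of 2 libraries against 2 cannot give a p below 0.333, the value found here. It was one of 7 ratios, chosen after the values were seen, with an adjusted p of 0.583 in that exact test. Counts per gene do not separate the long and short Ubtf isoforms, of which the long one is the activator of ribosomal DNA transcription.

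None of the SL1 subunits among the 10 passed the test, with 1 of the 3, Taf1d, at an unadjusted p under 0.05 in edgeR and 0 called by DESeq2. Taf1b, the subunit with similarity to the general factor TFIIB, had 21.3 and 16.4 CPM with auxin, against 20.0 and 17.0 CPM without auxin. The libraries without auxin lay inside the range of the auxin libraries, the spread within each group was larger than the gap between the means, and the counts were the lowest of the 10 at 251 to 289 fragments per library (log2 fold change 0.02 ± 0.14 SE, edgeR adjusted p = 0.941). Taf1c, the large SL1 subunit that contacts the polymerase through Rrn3, had 58.7 and 58.1 CPM with auxin, against 57.3 and 64.5 CPM without auxin. Its groups also overlapped, since the auxin libraries lay inside the range of the libraries without auxin (log2 fold change −0.06 ± 0.08 SE, edgeR adjusted p = 0.599). With library totals alone the estimate for Taf1c was 0.04.

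Taf1d had 39.0 and 43.0 CPM with auxin, against 48.5 and 47.9 CPM without auxin, so both auxin libraries were low. Its log2 fold change of −0.23 ± 0.08 SE stood just outside the threshold (edgeR adjusted p = 0.0504). In edgeR it passed without auxin replicate 2 (adjusted p = 0.0312) and missed without auxin replicate 1 (0.245). It also missed with DESeq2 (adjusted p = 0.159) and with library totals alone (edgeR adjusted p = 0.260). For Polr1e, Ubtf, Taf1b, Taf1c and Taf1d a missed threshold does not show an unchanged level.

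**Figure D2:**
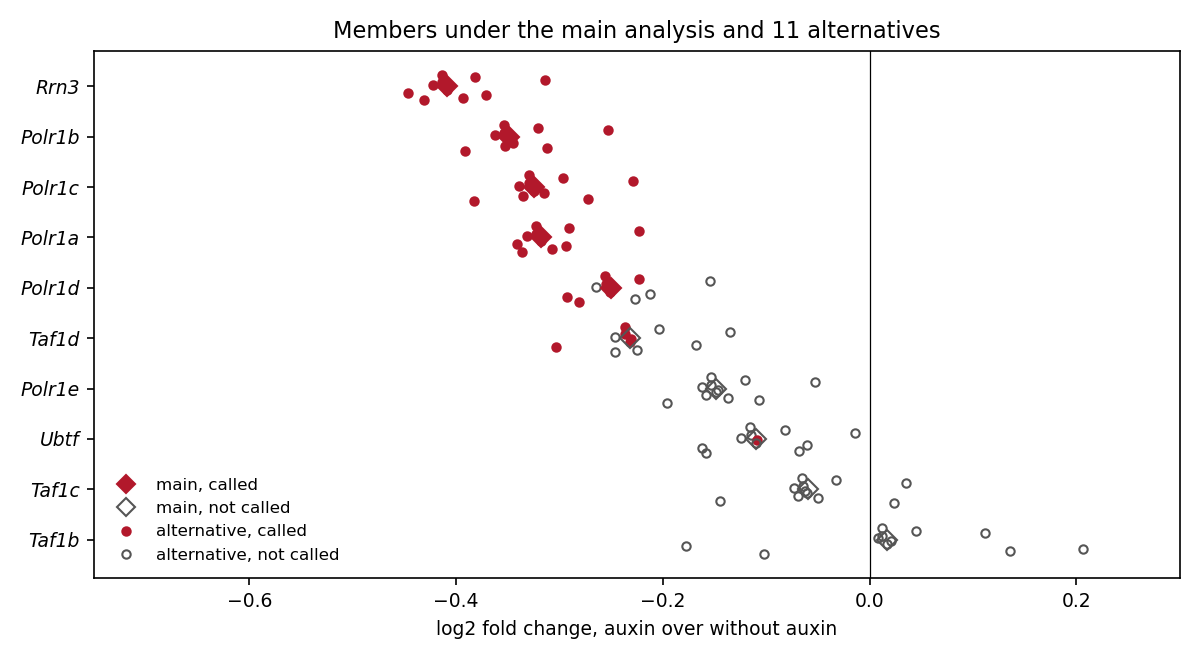
Log2 fold change (auxin over without auxin) of each of the 10 genes, with the value as reported (diamonds) and the values under 11 other settings (circles), filled where the adjusted p was under 0.05. Rrn3, Polr1a, Polr1b and Polr1c were called under all 11, Polr1d under 7, Taf1d under 5 and Ubtf under 1, while Polr1e, Taf1b and Taf1c were called under none.

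Levels between genes were compared per length, in FPKM (CPM per kb of annotated exon). The length is that of all annotated exons of a gene merged, not that of the transcripts expressed. Levels and their order between genes therefore also depend on the annotation. Rrn3 was the highest member in both groups, at 85.4 ± 2.90 FPKM with auxin and 113 ± 1.93 FPKM without auxin (SD, n = 2 each). It stood above 95.7% of tested genes with auxin and above 96.5% without auxin. Ubtf came next at 59.8 ± 3.14 FPKM with auxin and 64.6 ± 2.77 FPKM without auxin, before Polr1a at 47.3 ± 0.978 FPKM with auxin and 58.9 ± 0.749 FPKM without auxin. Polr1c followed at 40.9 ± 0.515 FPKM with auxin and 51.2 ± 2.70 FPKM without auxin. Polr1d had 30.4 ± 1.28 FPKM and Taf1d 30.1 ± 2.08 FPKM with auxin, against 36.2 ± 0.906 FPKM and 35.4 ± 0.314 FPKM without auxin, and the ranges of these neighbours overlapped in both groups. Polr1b had 25.0 ± 0.159 FPKM with auxin and 31.8 ± 1.18 FPKM without auxin, less than its partner Polr1a. The low end was held by Taf1c at 17.3 ± 0.114 FPKM, Polr1e at 9.82 ± 0.0760 FPKM and Taf1b at 9.34 ± 1.72 FPKM with auxin. Without auxin Taf1c had 17.98 ± 1.51 FPKM, Polr1e 10.9 ± 0.460 FPKM and Taf1b 9.17 ± 1.05 FPKM. The order of the 10 means was the same in both groups, and Polr1e and Taf1b overlapped in the auxin libraries only. As shares of the summed per-length signal (TPM), the mean of Ubtf was 153.6 with auxin against 151.9 without auxin and that of Taf1c 44.2 with auxin against 42.3 without auxin, so for these 2 uncalled genes the direction turned with the scale. The gaps of called members narrowed on that scale, with TPM of 121 for Polr1a, 64.1 for Polr1b, 104.8 for Polr1c, 77.9 for Polr1d and 218.8 for Rrn3 with auxin, against 138.6, 74.9, 120.4, 85.1 and 266.7 for the same genes without auxin.

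**Figure D3:**
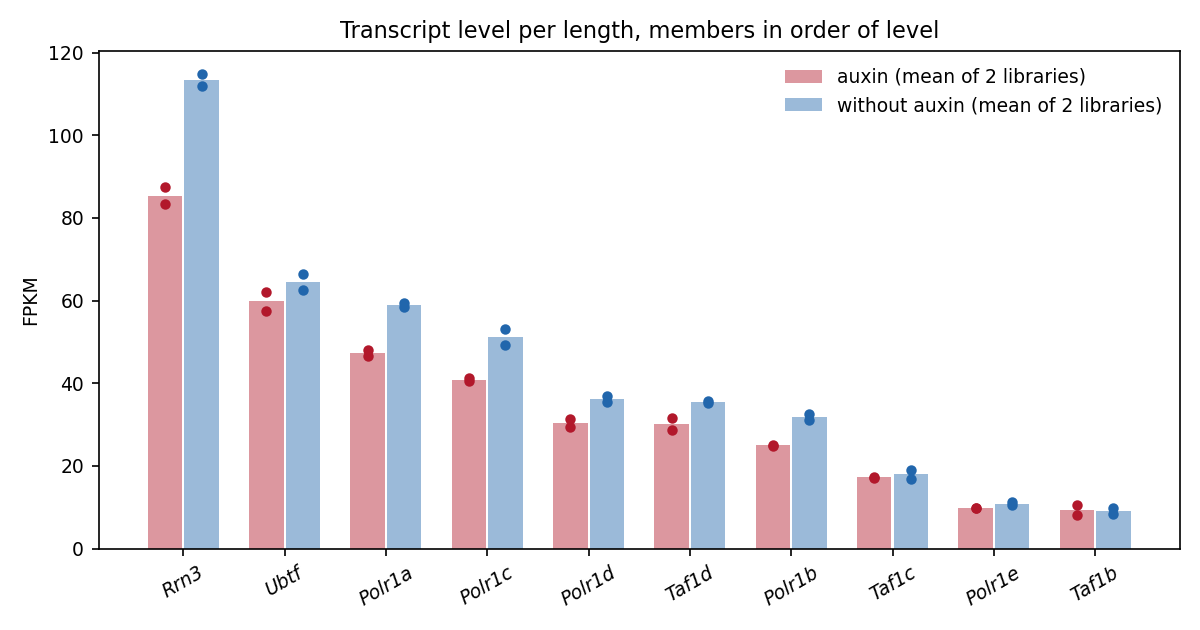
Level per exon length in FPKM (linear axis from 0) of the 10 genes in order of level, with auxin as the left bar and without auxin as the right bar of each pair. Bars are means of 2 libraries and points are the libraries. Rrn3 is highest in both groups, at 85.4 FPKM with auxin and 113 FPKM without auxin, and the order of the genes is the same in both.

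Of 3 further polymerase I subunits 2 were called lower, with a median log2 fold change of −0.27. Cd3eap, the partner of Polr1e, had 34.8 and 35.5 CPM with auxin, against 45.5 and 42.0 CPM without auxin (log2 fold change −0.32 ± 0.08 SE, edgeR adjusted p = 0.0140). Znrd1, a small zinc-ribbon subunit that takes part in RNA cleavage, had 35.7 and 33.8 CPM with auxin, against 44.6 and 39.3 CPM without auxin (log2 fold change −0.27 ± 0.09 SE, edgeR adjusted p = 0.0397). Twistnb, a stalk subunit, had 31.9 and 31.0 CPM with auxin, against 33.1 and 31.3 CPM without auxin and was not called (log2 fold change −0.03 ± 0.09 SE, edgeR adjusted p = 0.798). The calls on Cd3eap and Znrd1 were not made by DESeq2 (adjusted p = 0.0509 and 0.124) nor with library totals alone (edgeR adjusted p = 0.0694 and 0.152). Znrd1 was also not called with upper-quartile factors (edgeR adjusted p = 0.0554). Neither gene was called without replicate 1 of the cells without auxin (−0.26 and −0.18), nor was Znrd1 without auxin replicate 2 (−0.23).

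Of 5 subunits shared by polymerases I, II and III, Polr2e (−0.18), Polr2f (−0.27) and Polr2h (−0.30) were called lower on the log2 scale, and Polr2l (−0.26) and Polr2k (−0.08) were not. With library totals alone 0 of the 5 were called lower. DESeq2 called 1 of the 5, and 1 was called in edgeR without auxin replicate 1, without replicate 1 of the cells without auxin and without replicate 2 of the cells without auxin. Of 3 other SL1 genes, Taf1a was called lower, at 8.63 and 8.79 CPM with auxin, against 12.6 and 11.3 CPM without auxin (log2 fold change −0.46 ± 0.14 SE, edgeR adjusted p = 0.0293). The TATA-binding protein Tbp (−0.19) and Taf12 (−0.11) were not called. Taf1a is a low-count gene whose adjusted p was 0.156 with DESeq2 and 0.0781 in edgeR with library totals alone. It was also not called without auxin replicate 1 (−0.45), without auxin replicate 2 (−0.47) or without replicate 1 of the cells without auxin (−0.38).

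The medians of the lists for the other polymerases were also below 0, and their counts stand against 14.5% called lower among all tested genes and 20.8% among genes in the members' range of level. Of 7 subunits specific to polymerase II 3 were called lower, including the catalytic subunits Polr2a (−0.22) and Polr2b (−0.25), with a list median of −0.17. With library totals alone 1 of the 7 was called lower, and Polr2a (−0.13) was not called (edgeR adjusted p = 0.110). Without replicate 2 of the cells without auxin the estimate for Polr2a was −0.17. Of 11 subunits specific to polymerase III 4 were called lower, among them the largest subunit Polr3a (−0.24) and Polr3e (−0.24), and Polr3c was called higher (0.33), with a list median of −0.20. The polymerase III count was 2 without auxin replicate 2 and 1 without either library of the cells without auxin, and the call on Polr3c was lost without replicate 2 of those cells (adjusted p = 0.121). Among 16 polymerase III factors 4 were called lower, with Gtf3c4 (−0.27) and Gtf3c2 (−0.20) the strongest by p, and the list median was −0.12. Leaving out any 1 library gave 1 or 2 called lower. Among 29 general factors of polymerase II 5 were called lower, led by Taf9 (−0.37) and Gtf2h3 (−0.32), 1 was called higher (Taf7, 0.17), and the list median was −0.06. The share called lower in that list, 17.2%, was near the background. Leaving out any 1 library gave 2 to 4 called lower and 0 called higher.

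The ratio of Polr1a to Polr2a, per length, was 0.242 and 0.232 with auxin, against 0.265 and 0.243 without auxin. The ratio of Polr1b to Polr2b was 0.439 and 0.460 with auxin, against 0.500 and 0.462 without auxin. In both pairs the auxin libraries were the lower ones by narrow margins, each by 0.10 on the log2 scale with an exact two-sided permutation p of 0.333, the smallest that 2 against 2 libraries can give. The ratio of Polr1a to Polr3a overlapped between groups, at 2.73 and 2.56 with auxin, against 2.86 and 2.73 without auxin (exact permutation p = 0.667). The ratio of Polr1b to Polr3b was 1.180 and 1.195 with auxin, against 1.346 and 1.25 without auxin (exact permutation p = 0.333). With that floor, the test cannot decide whether the drop was particular to polymerase I.

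Most of the listed cofactors of ribosomal RNA transcription and most of the ribosomal RNA processing genes were also called lower. Their counts stand against 14.5% called lower among all tested genes and 20.8% among genes in the members' range of level. Of 14 cofactors of ribosomal RNA transcription 13 were called lower, with a median log2 fold change of −0.36, and 11 to 14 were called under every setting tried. Myc, the growth regulator that drives polymerase I transcription, had the largest change in the list, with 26.5 and 27.8 CPM with auxin, against 63.1 and 61.1 CPM without auxin (log2 fold change −1.19 ± 0.08 SE, 2.28-fold lower, edgeR adjusted p = 2.705e-06). Heatr1, a subunit of the complex that couples transcription of the precursor to its first processing, had 256 and 255 CPM with auxin, against 376 and 373 CPM without auxin (log2 fold change −0.55 ± 0.05 SE, edgeR adjusted p = 1.85e-05). Of 47 ribosomal RNA processing genes 41 were called lower with a median of −0.30, including Nip7 (−0.47) and the H/ACA ribonucleoprotein subunit Nhp2 (−0.42).

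Of 11 genes of ribosomal DNA chromatin and transcription termination 5 were called lower, with a list median of −0.17. The histone demethylase Kdm2b (−0.43) and topoisomerase Top2a (−0.32) were the strongest by p, though not by size of change. Among 15 kinases known to act on Rrn3 or Ubtf, 3 were called lower and 1 higher with a median of −0.04, and the share called lower, 20%, was near the 14.5% of all tested genes. Cdk4, the cyclin-dependent kinase of G1, had 477 and 478 CPM with auxin, against 634 and 619 CPM without auxin (log2 fold change −0.39 ± 0.05 SE, edgeR adjusted p = 0.000172). Mtor, the nutrient-sensing kinase that keeps Rrn3 active, was called lower (−0.19 ± 0.06 SE, edgeR adjusted p = 0.0221). That call was not made with library totals alone (−0.10, edgeR adjusted p = 0.210). It was also not made without auxin replicate 2 (−0.16) or without either library of the cells without auxin (−0.22 and −0.18). The kinase count was 1 without auxin replicate 2 and 1 without replicate 2 of the cells without auxin. Prkaa2, a catalytic subunit of AMPK, the energy-sensing kinase that inhibits Rrn3, had 35.7 and 33.7 CPM with auxin, against 19.9 and 22.4 CPM without auxin (log2 fold change 0.71 ± 0.10 SE, edgeR adjusted p = 0.000413). The other catalytic subunit, Prkaa1, overlapped between groups, at 51.6 and 46.3 CPM with auxin, against 44.7 and 50.2 CPM without auxin. Prkaa1 was not called (log2 fold change 0.04 ± 0.09 SE, edgeR adjusted p = 0.755).

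**Figure D4:**
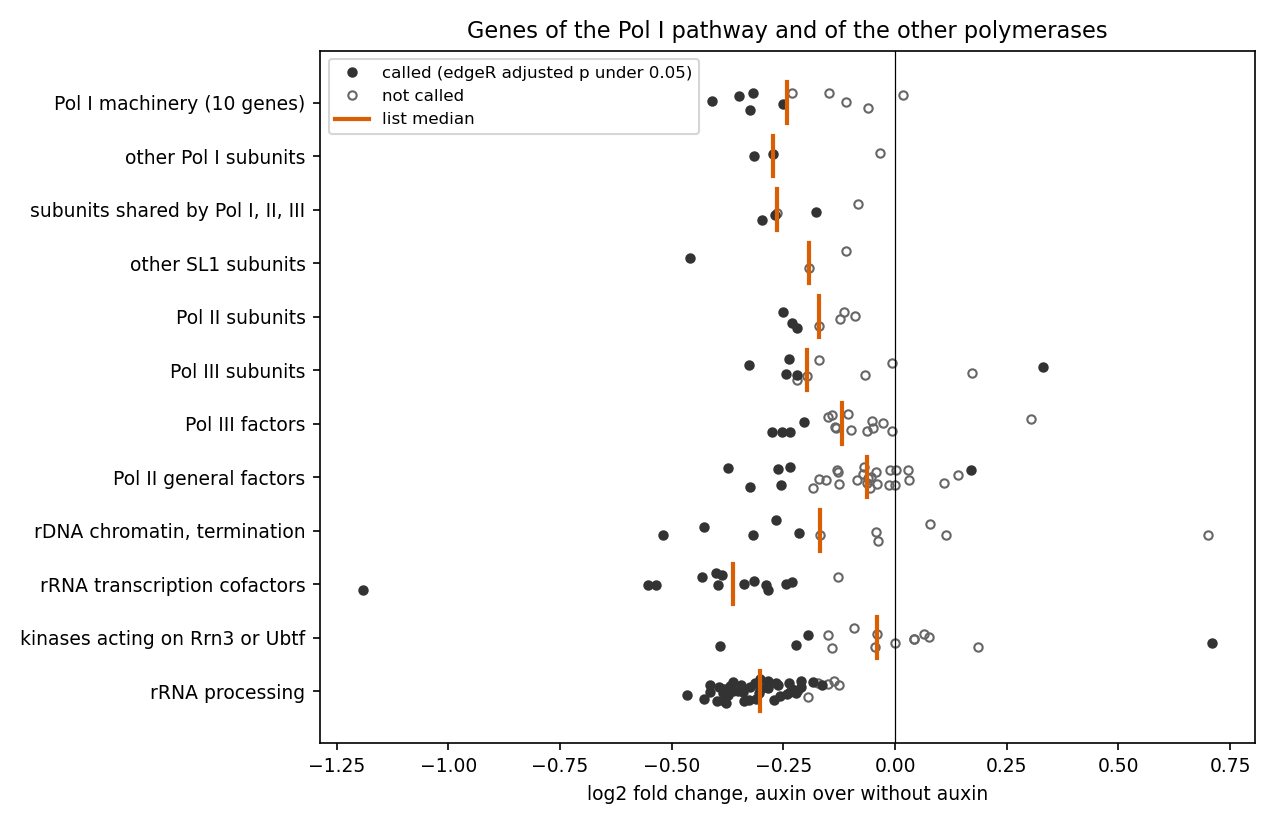
Log2 fold change (auxin over without auxin) of every tested gene in the machinery and in 11 related lists, with filled points called by edgeR at an adjusted p under 0.05, open points not called, and an orange bar at each list's median. The machinery's median is −0.24, the ribosomal RNA transcription cofactors have the lowest median at −0.36, and Myc lies alone at −1.19.

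The product of polymerase I was not measured directly. The libraries were made from polyadenylated RNA, which removes most ribosomal RNA, and the ribosomal RNA genes Rn45s, Rn18s and Rn28s1 were not rows of the table used. The nearest features were Gm26924 (chr17:39846958-39848788, mm10, plus strand) and Gm26917 (chr17:39845074-39846245, mm10, plus strand), of which Gm26924 overlaps Rn18s-rs5, an 18S ribosomal RNA-related pseudogene in RefSeq. Gm26924 had 287272 and 171082 fragments with auxin, against 260672 and 314480 fragments without auxin, and Gm26917 had 9168 and 17581 fragments with auxin, against 10714 and 20867 fragments without auxin. Libraries of 1 group differed as widely as the groups did, and neither feature was called (log2 fold changes −0.34 ± 0.23 SE and −0.33 ± 0.23 SE, edgeR adjusted p = 0.299 and 0.319). Both were called lower with a filter of at least 1 read (adjusted p = 1.39e-20 and 1.63e-10), a fit that gave them standard errors of 0.035 and 0.0483, far below the spread of their libraries. The estimate for Gm26924 was −0.97 without auxin replicate 1 (edgeR adjusted p = 1.59e-85) and 0.10 without auxin replicate 2 (0.0602). That for Gm26917 was −0.68 without auxin replicate 2 (edgeR adjusted p = 1.05e-26), −0.72 without replicate 1 of the cells without auxin (0.000155) and 0.19 without replicate 2 of those cells (0.307). Reads of near-identical ribosomal RNA copies cannot be assigned to 1 copy, and these values do not measure ribosomal RNA synthesis.

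Many cell cycle genes were also called lower with auxin in these G1-released cells, against 14.5% of all tested genes. Of 18 G1/S genes 11 were called lower and 7 were not called, Ccne2 (0.08) and E2f1 (0.09) among them, with a summed level of 4584 and 4550 CPM with auxin, against 5317 and 5366 CPM without auxin, and Pola1 (−0.53) and Mcm7 (−0.37) led by p. The G1/S count was 7 without replicate 2 of the cells without auxin. Of 18 G2/M genes 16 were called lower, with a summed level of 2572 and 2643 CPM with auxin, against 3193 and 3189 CPM without auxin, and Mki67 (−0.38) and Bub1b (−0.37) led by p. Stem cell markers had a summed level of 5546 and 5427 CPM with auxin, against 6125 and 5925 CPM without auxin, with Esrrb (−0.40) and Tdgf1 (−0.40) lower and Nanog (0.33) higher. Targets of the aryl hydrocarbon receptor, which binds some indole compounds, also moved with auxin, with 4 of 6 tested called higher, including Cyp1a1 (7.91) and Cyp1b1 (5.08). Among fibroblast markers Vim (−0.33) was called lower and Pdgfrb (1.45) higher. The part of the cell cycle, of cell state and of the auxin compound itself in the lower levels of the machinery was not tested. The share of mitochondrial fragments was 4.96% and 3.46% with auxin, against 4.06% and 3.52% without auxin. Removing mitochondrial genes and Gm26924 kept the calls on the members called lower as reported. Taf1d just crossed the threshold (edgeR adjusted p = 0.0496, against 0.0504 as reported), with its log2 fold change still −0.23.

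None of the 10 genes had an H3K27me3 peak within 1 kb of its 5′ end, in either assay, in cells without auxin or the control. Over all 32968 placed genes, whether or not they passed the filter on low counts, 9.09% had such a peak by ChIP-seq and 13.2% by CUT&RUN. None had one within 5 kb either, against 18.1% and 24.0% of all genes. At these shares, 0 of 10 does not set the members apart from other genes. With peaks of a −log10 q of at least 5, only 0.0303% and 0.0212% of all genes had a peak within 1 kb, so that setting cannot set them apart either. The nearest peak in the ChIP-seq list lay 7417 bases from Taf1c at the closest and 287302 bases from Rrn3 at the farthest. In the CUT&RUN list the same 2 genes were the extremes, at 9358 and 261239 bases. The mark was mapped in 1 sample per assay, with no measurement at these promoters with auxin used here, and the read depth behind the peak lists is unknown.

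The members lie on 10 different chromosomes of mm10, with Polr1a at chr6:71909053-71979356 (+), Polr1b at chr2:129100995-129126594 (+) and Polr1c at chr17:46243920-46248054 (−). Polr1d is at chr5:147077050-147111361 (+), Polr1e at chr4:45018583-45036565 (+), Rrn3 at chr16:13780699-13814840 (+) and Ubtf at chr11:102304560-102319742 (−). Taf1b is at chr12:24498581-24558571 (+), Taf1c at chr8:119597975-119605222 (−) and Taf1d at chr9:15306214-15312104 (+). Of these, 4 overlap a gene on the opposite strand, Polr1a with Gm26628, Polr1e with Fbxo10, Taf1c with Dnaaf1 and Taf1d with 4931406C07Rik. The shared exon length was 185, 0, 480 and 70 bases in that order. Counting used the strand, so these neighbours were kept apart, whereas reads from processed pseudogenes of any member could not be told apart from the gene.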

How the data were processed

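Raw fragment counts per gene were deposited by the authors. Per the file headers, featureCounts 1.6.3 assigned read pairs to exons of an mm10 annotation, reverse-stranded. Alignment was with STAR 2.6.1d per the submitters' processing notes, with MACS2 2.1.1 and Bowtie2 2.4.1 among the tools for chromatin. Each deposited list of broad peaks came from a single sample and holds a score, fold enrichment, −log10 q and −log10 p for every peak. These peak values are the authors' and were used only to filter peaks. The sources used here do not give the peak caller's control or cutoff.

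The count test was edgeR's quasi-likelihood F test (version 4.0.16, R 4.3.3) after TMM scaling and the default filter, two-sided, adjusted by Benjamini-Hochberg over 13522 genes at a threshold of 0.05, without a block for the replicate number. Standard errors are the size of the log2 fold change divided by root F. FPKM is CPM per kb of annotated exon, computed from the deposited counts and lengths. The test code was run on simulated counts, which had far fewer changed genes than were called here. That run checks the code and is not support for any call. The members and the 16 other gene lists were chosen with earlier results of these data known, so no p is given for a list. Besides the 10 members and Npm1, the text names all genes of lists with up to 5 genes and, in longer lists, the 2 called genes with the smallest p in each direction. Marker genes Pou5f1, Lum, Postn, Fn1, Col1a1, Col1a2, Ccne2 and E2f1 and the 7 ratios were chosen after their values were seen. So were Polr3b, as the partner in a ratio, and Prkaa1, as the other catalytic subunit of AMPK.

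Replicates of 1 group differed beyond sampling noise (chi-square over degrees of freedom, 11.1 with auxin and 3.86 without auxin), so each library counted once. No label says that replicates were separate cultures. The p-values therefore measure only how far these libraries vary, which could be technical variation. Alternatives were RLE and upper-quartile factors, library totals alone, a filter of at least 1 read, DESeq2 1.42.0, a replicate block, removal of mitochondrial genes and Gm26924, and leaving out each library. A peak counted at a gene where it overlapped 1 kb either side of the annotated 5′ end.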

Additional observations from a re-analysis of the deposited data

How the results depend on the processing

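Rrn3, Polr1a, Polr1b and Polr1c were called lower under all 11 alternatives, with the highest adjusted p at 0.000859, 0.00671, 0.00735 and 0.0289. The count of members called lower was 4 to 7 over all settings and 4 to 6 when 1 library was left out, and their median log2 fold change was −0.29 to −0.19 when 1 library was left out. Ubtf was called under the replicate block only (adjusted p = 0.00556), and Taf1d under RLE factors (0.0453), the filter of at least 1 read (0.0405), the block (0.00140), removal of mitochondrial genes and Gm26924 (0.0496) and without auxin replicate 2 (0.0312).

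Over all genes, library totals alone gave 988 lower and 2735 higher, DESeq2 gave 881 higher, and leaving out 1 library gave 1257 to 1914 lower and 1225 to 1705 higher. The cause was not tested. With the replicate number as a block, edgeR called 3177 lower and 2972 higher, with 7 members lower. Same-numbered libraries deviated together (r = 0.297 across genes, which are not independent), but with 2 pairs and no label to tie them the samples share only a number.

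Estimates that turned sign were Taf1c (0.0353 with totals alone; −0.14 to 0.0238 leaving out 1 library), Twistnb (0.0614 with totals alone; −0.0785 to 0.0035) and Polr2k (0.0126 with totals alone; −0.26 to 0.10). Leaving out 1 library gave −0.18 to 0.21 for Taf1b, −0.25 to 0.0354 for Taf12, −0.97 to 0.10 for Gm26924 and −0.72 to 0.19 for Gm26917, and none of these was called as reported. The replicate block called Gm26924 and Gm26917 lower (edgeR adjusted p = 2.54e-15 and 2.72e-15), and DESeq2 did not (0.661 and 0.720). In that block fit the standard errors were 0.0518 and 0.0364. Yet Gm26924 was higher with auxin in replicate 1 (21182 against 18311 CPM) and lower in replicate 2 (10161 against 21322 CPM). Gm26917 was lower with auxin in both. The block's p for Gm26924 therefore does not measure its spread between libraries, and the block's other calls rest on the same fit. Of the log2 fold changes of named genes under the alternatives, 515 kept their direction and side of the threshold, 50 lost the call, 16 gained it and 12 turned sign. DESeq2 called 11.7% of its 12401 genes lower and 7.1% higher. Counts called lower ranged over the settings from 0 to 2 (2 as reported) for other polymerase I subunits, 0 to 4 (3) for shared subunits, 0 to 2 (1) for other SL1 genes, 1 to 4 (3) and 0 to 6 (4) for polymerase II and III subunits, and 1 to 6 (4) and 2 to 9 (5) for polymerase III and II factors. They ranged from 3 to 6 (5) for ribosomal DNA chromatin, 1 to 5 (3) for kinases, 26 to 45 (41) for processing, 6 to 15 (11) for G1/S genes, 3 to 5 (5) for stem cell markers and 0 to 1 (0) for aryl hydrocarbon receptor targets. Counts called higher ranged from 0 to 1 (1) for polymerase III subunits, 0 to 1 (0) for its factors, 0 to 3 (1) for polymerase II factors, 0 to 1 (0) for ribosomal DNA chromatin and 1 to 3 (1) for kinases. With 251 to 289 fragments per library, depth limits Taf1b most among the members.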
